A study of Mus musculus with 26 samples.

Results

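The nuclear-encoded genes of oxidative phosphorylation were followed through 26 RNA-seq libraries from the accumbens nucleus of mice that took cocaine or saline. A gene belonged to the set if its symbol began with Nduf and a, b, c, s or v, with Uqcr, with Cox4 to Cox8 or with Atp5, or was Sdha, Sdhb, Sdhc or Sdhd, and if at least 10 reads were counted in at least 3 of the 26 libraries. Of 31735 genes listed in every file, 92 met the rule on symbols and 87 also met the rule on counts. The 5 that did not are Cox6a2, Cox7a1, Cox7b2, Cox8b and Cox8c. The 87 comprise 36 subunits and 8 assembly factors of complex I, 4 subunits of complex II, 8 of complex III, 14 of complex IV with the supercomplex factor Cox7a2l, and 16 of complex V. Ndufa4 and Ndufa4l2 were placed with complex IV, to which Ndufa4 is now assigned, and Atp5sl with the assembly factors of complex I.

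The animals were adult mice of the line Drd2-TRAP CP101, on FVB/N-Swiss Webster crossed for at least 9 generations to C57BL/6. In this line a transgene under the Drd2 promoter makes EGFP fused to the ribosomal protein L10a. In the accumbens that promoter is active mainly in medium spiny neurons that carry the D2 receptor for dopamine, and cholinergic interneurons use it too. Tagged polysomes were pulled down with antibodies against EGFP, and the RNA on them was sequenced in 24 immunopurified libraries; total RNA was sequenced in 2 input libraries. All animals performed long-access intravenous self-administration. The immunopurified groups are saline (n = 3), nonescalating cocaine (n = 5), escalating cocaine (n = 2), saline with withdrawal (n = 6) and nonescalating cocaine with withdrawal (n = 8), with 1 input library each from saline and from nonescalating cocaine. The words escalating and nonescalating are the labels' own, and neither dose nor withdrawal time is used here. The titles and the descriptions of the 5 nonescalating libraries disagree, since the descriptions carry the word withdrawal; the titles were followed. No label says that libraries of a group came from separate animals, so p-values measure only the spread between libraries, which may be technical. Libraries numbered 1806 to 1825 are called library set 1 and those numbered 1836 to 1843 library set 2; the groups without withdrawal lie in set 1.

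Gene counts per immunopurified library, in units of 1000000 counts, ran from 1.54 to 17.5 with a median of 3.27. Between 29.7% and 62.5% of the read records of a library fell in no annotated feature. The D2 neuron genes Drd2 and Penk were present in all 24 libraries, at 247 to 3057 and 344 to 5526 CPM (counts per 1000000 gene counts, scaled by TMM). Nonescalating replicate 4 stood apart with the lowest level of both, with 78052 CPM of the nuclear RNA Malat1 (7596 to 35993 CPM in the other 23) and with 62.5% of reads in no feature. In the fit with the inputs, Drd2 was at 1240 to 2816 CPM in 7 of the 8 immunopurified libraries, above both inputs (282 and 381 CPM), and at 242 CPM, below both, in nonescalating replicate 4. All 6 D2 neuron markers were above 0 against input (median log2 change 1.74), 3 of them at an unadjusted p under 0.05 and 0 past the threshold with edgeR. Markers of endothelial and mural cells summed to 289 to 7748 CPM, of astrocytes to 365 to 2546 CPM and of oligodendrocytes to 218 to 3517 CPM, so RNA of other cells was present in each library. In such bulk material fewer cells of a type and less RNA per cell cannot be told apart.

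Oxidative phosphorylation is the last stage of aerobic energy metabolism. Complex I oxidises NADH and complex II oxidises succinate, both pass electrons to ubiquinone, complex III passes them on to cytochrome c and complex IV to oxygen. Complexes I, III and IV pump protons across the inner mitochondrial membrane, and complex V, the ATP synthase, makes ATP from the returning protons. Most subunits are encoded in the nucleus and made on cytosolic ribosomes, the ribosomes that TRAP samples. The subunits encoded in mitochondrial DNA are made inside the organelle and are not analysed here. Neurons draw most of their ATP from this pathway, above all to restore ion gradients after firing. In many tissues the nuclear genes are known to be switched together, with the factors NRF1, GABPA of the ETS family, YY1 and the oestrogen-related receptors among their regulators and Ppargc1a as a coactivator.

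The promoters of 4 genes on which the results below turn are shown. They are RefSeq windows of the build GRCm38.p6, from 250 bases before to 50 bases after the transcription start, 5′ to 3′ on the strand of the gene. Atp5b (chr10:128083057-128083356, plus strand) is the most abundant gene of the set, Cox8a (chr19:7217567-7217866, minus strand) and Cox6a1 (chr5:115348909-115349208, minus strand) are the most abundant subunits of complex IV per length, and Uqcrc1 (chr9:108936398-108936697, plus strand) is the gene with the smallest p between 2 cocaine groups. Capitals mark matches, on either strand, to GCATGCG (NRF1), CCGGAAG (ETS factors, such as GABPA) or AAGATGG (YY1), and the NRF1 word overlaps its own reverse complement.
Atp5b: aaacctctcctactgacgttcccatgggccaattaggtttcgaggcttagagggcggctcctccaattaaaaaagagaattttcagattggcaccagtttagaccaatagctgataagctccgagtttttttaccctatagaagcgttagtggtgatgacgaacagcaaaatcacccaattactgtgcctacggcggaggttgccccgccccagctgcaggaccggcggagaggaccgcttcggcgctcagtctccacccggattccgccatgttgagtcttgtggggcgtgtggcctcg
Cox8a: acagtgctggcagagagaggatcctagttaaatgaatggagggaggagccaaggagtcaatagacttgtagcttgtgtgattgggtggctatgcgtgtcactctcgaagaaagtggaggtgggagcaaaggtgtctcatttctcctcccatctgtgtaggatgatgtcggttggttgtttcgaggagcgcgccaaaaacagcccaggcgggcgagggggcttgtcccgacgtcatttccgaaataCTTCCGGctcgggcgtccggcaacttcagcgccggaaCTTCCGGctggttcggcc
Cox6a1: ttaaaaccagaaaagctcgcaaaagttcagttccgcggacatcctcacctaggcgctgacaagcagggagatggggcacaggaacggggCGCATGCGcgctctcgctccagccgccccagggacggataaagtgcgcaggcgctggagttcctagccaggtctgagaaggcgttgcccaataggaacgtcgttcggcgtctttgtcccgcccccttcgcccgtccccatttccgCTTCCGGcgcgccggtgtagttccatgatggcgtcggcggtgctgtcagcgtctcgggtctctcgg
Uqcrc1: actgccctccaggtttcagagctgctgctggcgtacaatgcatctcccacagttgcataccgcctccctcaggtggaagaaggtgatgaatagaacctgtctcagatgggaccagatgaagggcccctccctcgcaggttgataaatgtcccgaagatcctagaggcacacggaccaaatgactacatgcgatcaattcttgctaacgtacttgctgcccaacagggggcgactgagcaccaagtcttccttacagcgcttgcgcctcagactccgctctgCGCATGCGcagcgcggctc
Of the 87 genes 70 had a window in the table, 75 windows in all. The NRF1 word was in 17.3% of these windows, in 5.78% of the windows of all genes tested here and in 3.58% of all 32851 windows. The ETS word was in 22.7%, 15.2% and 8.86%, the YY1 word in 13.3%, 6.64% and 6.34%, and AAGGTCA, a half-site of the oestrogen-related receptors, in 10.7%, 3.33% and 4.72%. The GC box GGGCGG, a word bound by Sp1, was in 42.7% of the windows of the set, against 59.9% of those of the genes tested. TATAAA was in 8.0%, against 7.44%. At least 1 NRF1, ETS or YY1 word was found for 33 of the 70 genes, and for Atp5b none in this window. These are letter matches and were not tested as binding sites.

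Levels are compared between genes as CPM per kb of annotated exon, averaged over the 24 immunopurified libraries. The catalytic subunit of the ATP synthase, Atp5b, stood at 413 CPM per kb and its partner Atp5a1 at 152. By reads Atp5b alone made up 29.4% of the summed level of the 87 genes, Atp5a1 7.98% and the flavoprotein of complex II, Sdha, 6.30%. The lowest subunit of complex V was Atp5l at 0.34 CPM per kb, with at most 61 reads in a library and 6.44 kb of annotated exon. For 5 genes of the set, Atp5l with 2 among them, genes named as their pseudogenes are annotated. Reads with several alignments were not counted in genes. The part of pseudogenes in these levels was not tested. Across the set the median was 19.9 CPM per kb over 86 genes (Atp5o had no unique gene model).

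In complex I the highest subunits were Ndufb9 at 75.1 and Ndufa1 at 52.5 CPM per kb, both accessory subunits of the membrane arm, and the lowest was Ndufb2 at 2.05. Of its core subunits, Ndufv1, which binds FMN and oxidises NADH, was at 21.4, and Ndufs1, an iron-sulfur subunit, at 7.84. The assembly factors of complex I ran from 3.84 (Ndufaf1) through 10.5 (Atp5sl) to 15 (Ndufaf3), with a median of 8.66 against 18.4 for the 36 subunits. In complex II, Sdha was at 91.1 and Sdhd, a membrane anchor, at 53.2, and the iron-sulfur subunit Sdhb was lowest at 15.7.

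In complex III the small subunit Uqcr10 was at 65.7, the hinge protein Uqcrh at 40.7, the Rieske protein Uqcrfs1 at 23.2, the core protein Uqcrc1 at 16.6 and Uqcrq, the lowest, at 7.30 CPM per kb. Complex IV had the highest median, 42.1, with Cox8a at 247, Cox6a1 at 151, Cox4i1 at 58.6 and Cox5a at 15.1. The order depends in part on the length used. With the median length of protein-coding transcripts, Ndufb9, Sdha, Cox8a and Atp5b still led their complexes, but Uqcrh (106) passed Uqcr10 (88.4) and Ndufa1 was 4th in complex I.

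**Figure D1:**
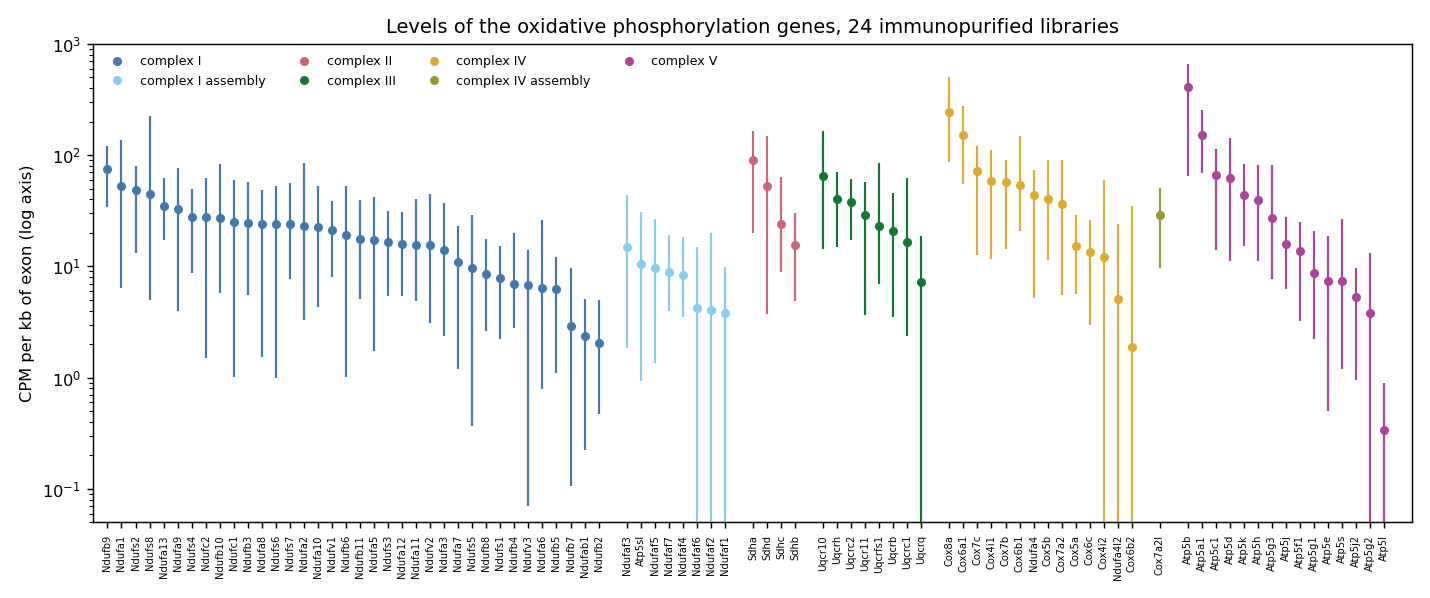
Mean level per kb of exon (points, log axis) of 86 genes over the 24 immunopurified libraries, grouped by complex, with lines from the lowest to the highest library; a line that reaches the axis ends at 0. Atp5b at 413 and Cox8a at 247 CPM per kb lie highest, and Atp5l at 0.34 lies lowest.

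Several subunits exist in forms used by different tissues. Of the cytochrome oxidase forms typical of heart and skeletal muscle, Cox8b had 0 reads in all 24 libraries, Cox7a1 had at most 8 reads in a library and Cox6a2 at most 20 (165 in 1 input library). The testis form Cox8c also had 0 reads and the testis form Cox7b2 at most 1. The ubiquitous partners Cox8a, Cox7a2 and Cox6a1 averaged 153, 34.5 and 106 CPM.
The testis form Cox6b2 was at 39.0 CPM (594 reads) in escalating replicate 1. It had 0 reads in 16 immunopurified libraries and at most 24 in the 7 others, so its presence among them rests on 1 library. In the fit with the inputs it was at 3.76 CPM in the nonescalating input and at 0 CPM in the saline input. It was left out of the fit of immunopurified libraries by the filter on low counts. Cox4i2, the form of Cox4 linked to lung and to low oxygen, ranged from 0 to 47.6 CPM with a median of 7.79, against 17.9 to 174 CPM for Cox4i1. Ndufa4l2, the low-oxygen paralog of Ndufa4, ranged from 0 to 26.2 CPM with a median of 0.86, and was at 0 in 5 libraries. Ndufa4 itself ranged from 7.23 to 101 CPM.
The 3 genes for the identical mature c subunit of the ATP synthase differed per length: Atp5g3 was at 27.4, Atp5g1 at 8.76 and Atp5g2 at 3.81 CPM per kb.

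The summed level of the 87 genes varied widely within most groups. In the 3 saline libraries it was 4226, 9191 and 4820 CPM, in the 5 nonescalating libraries 6812, 4625, 7707, 2385 and 4015 CPM, and in the 2 escalating libraries 5306 and 7766 CPM. After withdrawal the saline libraries ran from 4545 to 8146 CPM (median 6417) and the nonescalating libraries from 4547 to 6783 CPM (median 6260). The group means were 6079 ± 2712 (SD, n = 3), 5109 ± 2151 (SD, n = 5), 6536 ± 1739 (SD, n = 2), 6343 ± 1547 (SD, n = 6) and 6038 ± 765 (SD, n = 8). All groups overlap, and the 3 saline libraries span more than the 5 group means do. Over the 24 libraries the sum was 5967 ± 1582 CPM (SD). Relative to their means, the shares of the 3 larger parts were steadier. Complex V held 47.4% ± 4.3 of the sum (SD, n = 24), complex I 23.5% ± 3.3 and complex IV 14% ± 1.5. The shares of complex II, 9.3% ± 2.0 (4.7% to 13.2%), and complex III, 5.8% ± 1.4 (3.5% to 9.6%), were hardly steadier than the sum.

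**Figure D2:**
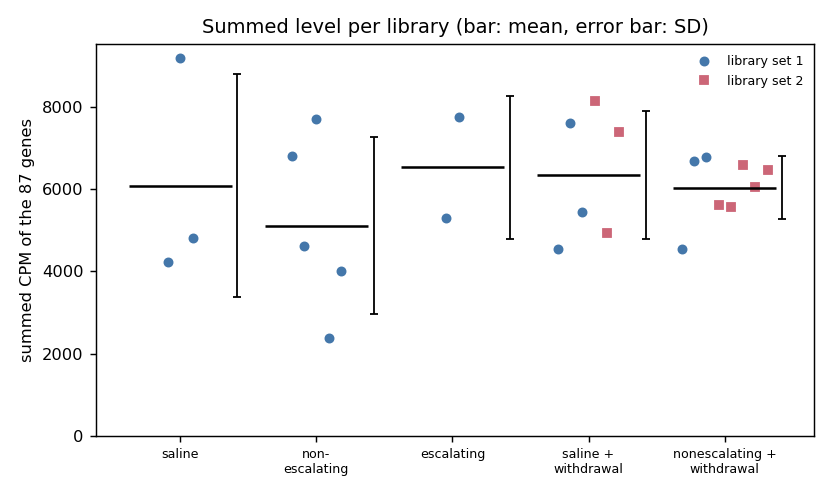
Summed CPM of the 87 genes in each immunopurified library (points; circles are library set 1, squares library set 2) by group, with the mean as a bar and the SD as an error bar. The groups overlap, with saline at 4226 to 9191 CPM and nonescalating at 2385 to 7707 CPM.

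No gene of the set passed the test between any 2 groups. Each comparison was fitted over all genes with edgeR's quasi-likelihood test, with a threshold of 0.05 on the Benjamini-Hochberg adjusted p, and 86 of the 87 genes entered. In the 7 comparisons of groups 0% of the 15854 genes passed, so the count of 0 among these 86 stands beside a background of 0. DESeq2's Wald test and limma voom also called 0 of the 86 in those comparisons, while of all genes DESeq2 called 27 higher and 116 lower for escalating against saline and 16 higher and 209 lower for escalating against nonescalating. The median standard error of the 86 log2 changes was 0.61 for nonescalating against saline and 0.45 for the same comparison after withdrawal. For escalating against nonescalating it was 0.69. Single genes with larger changes, such as Ndufaf3 at -2.14 (SE 1.02) for escalating against nonescalating, did not pass at this depth and n.

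Nonescalating cocaine was compared with saline to ask what the drug did before withdrawal. Of the 86 genes 34 were above 0 and 52 below, with a median log2 change of -0.15 (all genes 0.01). At an unadjusted p under 0.05 there were 3 genes, 3.49% of the set, against 6.74% of all genes. All 3 lay lower with cocaine. Ndufb5, an accessory subunit of the membrane arm of complex I, was at 49.5, 48.0 and 31.2 CPM in saline and at 19.9, 12.5, 5.66, 8.38 and 22.3 CPM in nonescalating libraries. These groups do not overlap, and Ndufb5 was the 1 gene of the set of which this held, against 2.42% of all genes. Its log2 change was -1.64 (SE 0.64, unadjusted p = 0.0157, adjusted p = 0.719, edgeR).
Ndufs8, an iron-sulfur subunit next to the quinone site of complex I, had the same size of change (-1.64, SE 0.65, adjusted p = 0.719) on other ground. It was at 292, 151 and 12.9 CPM in saline and at 16 to 91.8 CPM in nonescalating libraries, so 1 saline library was below all cocaine libraries and the other 2 above. Without saline replicate 1 its change was -0.75. Cox6c, a small subunit of complex IV, was at 33.3 to 94.1 CPM in saline and 10.7 to 38.6 CPM with cocaine (log2 change -1.19, SE 0.50, adjusted p = 0.719).
By complex, all 4 genes of complex II, 6 of 8 of complex III, 10 of 16 of complex V and 19 of 36 of complex I were below 0, with medians of -0.45, -0.46, -0.13 and -0.02. Saline replicate 3 weighed heavily: without it the median of the set was 0.31, with 58 of 86 above 0. Without nonescalating replicate 4 it was -0.00215, with 43 of 87 above 0.

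Escalating cocaine was compared with saline and with nonescalating cocaine. Both comparisons rest on the same 2 escalating libraries. Against saline 53 of the 86 genes were above 0, with a median of 0.13 (all genes -0.08), and 2 reached an unadjusted p under 0.05, or 2.33% against 8.09% of all genes. These were Ndufs8 (log2 change -1.82, SE 0.89, adjusted p = 0.614), at 43.1 and 43.3 CPM in the escalating libraries, and Sdhc, a membrane anchor of complex II (-1.44, SE 0.68, adjusted p = 0.614). Sdhc was at 28.9 and 51.7 CPM with escalating cocaine and at 35.5, 209 and 83.2 CPM in saline, and without saline replicate 3 its change was -0.54. The groups did not overlap for 15 of the 86 genes, 13 higher and 2 lower, against 14% of all genes in either direction. Without saline replicate 3 the median was 0.51, with 65 of 86 above 0, and without saline replicate 1 it was -0.10, with 41 of 86 above 0.

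Against nonescalating cocaine 57 of the 86 genes were above 0 with escalating cocaine, with a median of 0.34 (all genes -0.12), and 3 reached an unadjusted p under 0.05, or 3.49% against 8.75% of all genes. The groups did not overlap for 8 of the 86 genes, all higher with escalating cocaine (among them Atp5j2, Atp5k, Atp5l, Cox6c, Ndufa2, Ndufs5 and Uqcrc1). Of all 15854 genes the groups did not overlap for 9.06% in either direction, 799 higher and 637 lower. Uqcrc1, a core protein of complex III (chromosome 9 of GRCm38), was at 126 and 259 CPM in the escalating libraries and at 61.0, 58.8, 65.7, 36.2 and 37.9 CPM in the nonescalating ones. Its log2 change was 1.89 (SE 0.55, unadjusted p = 0.00168, adjusted p = 0.558), and over 16 settings of the analysis it ran from 1.28 to 2.32 with adjusted p between 0.0739 and 0.809. Saline replicate 3, at 177 CPM, lay between the escalating libraries, and the other 2 saline libraries were at 45.5 and 52.3 CPM.
Ndufb10, of the membrane arm of complex I, was at 25.7 and 101 CPM against 11.8 to 31.2 CPM (log2 change 1.62, SE 0.67, adjusted p = 0.558). Its change was 0.33 without escalating replicate 2. Ndufaf3, an assembly factor of complex I, was at 4.39 and 10.8 CPM against 7.99 to 79.9 CPM (-2.14, SE 1.02, adjusted p = 0.558). In this comparison 26 of 36 subunits of complex I and 7 of 8 of complex III were above 0 (medians 0.47 and 0.63), while 6 of the 8 assembly factors of complex I were below 0 (median -0.46). The escalating libraries had 47.2% and 31.3% of reads in no feature and the nonescalating ones 34.0% to 62.5%. With that share as a covariate the median of the set was 0.08, with 45 of 86 above 0, and without nonescalating replicate 4 it was 0.16, with 54 of 87 above 0.

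After withdrawal, nonescalating cocaine and saline were compared in 8 and 6 libraries. Of the 86 genes 32 were above 0 and 54 below, with a median of -0.08 (all genes 0.05), and 1 reached an unadjusted p under 0.05, or 1.16% against 3.49% of all genes. That gene was Ndufb6, an accessory subunit of complex I. In saline withdrawal it was at 23.4, 20.8 and 17.2 CPM in library set 1 and at 34.8, 17.4 and 17.9 CPM in set 2. In nonescalating withdrawal it was at 1.95, 13.6 and 5.42 CPM in set 1 and at 8.92, 16.3, 4.83, 11.8 and 5.45 CPM in set 2. All 8 cocaine libraries lay below all 6 saline libraries, which held for 0.0315% of the 15854 genes in either direction. The log2 change was -1.41 (SE 0.65, unadjusted p = 0.0378), the adjusted p was 1.0, and over 26 settings the change ran from -1.74 to -1.18. The values rest on few reads, from 7 in 1 library to 223. Before withdrawal the order was not the same: Ndufb6 was at 0.67, 12.7 and 2.40 CPM in saline and at 4.74 to 20.9 CPM in nonescalating libraries.
The sets pointed apart for the 86 genes as a whole. In set 1 alone 59 of 87 were above 0 (median 0.20), and in set 2 alone 66 of 85 were below 0 (median -0.19). The difference between the sets was not tested, and values of all genes for each set alone are not given here. The share of reads in no feature was 34.4% to 52.3% in saline and 36.2% to 52.0% in cocaine libraries of set 1. In set 2 it was 31.0% to 40.6% and 37.1% to 50.3%. The part of that share in the split was not tested. With the share of reads in no feature as a covariate 60 of 86 were above 0, with a median of 0.13.

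**Figure D3:**
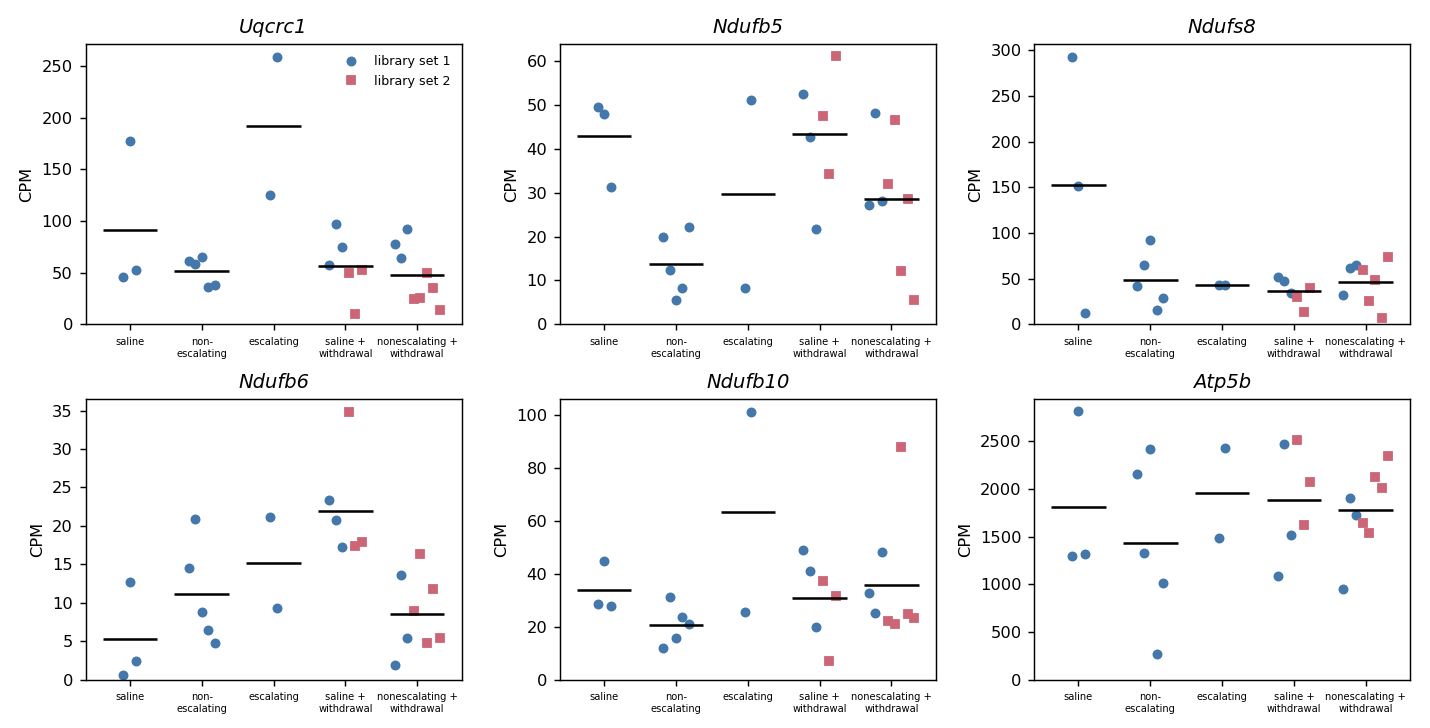
CPM of 6 genes in each immunopurified library (points; circles are library set 1, squares library set 2) by group, with the group mean as a bar. Uqcrc1 is highest in escalating replicate 2 at 259 CPM, Ndufb5 is lower in all 5 nonescalating than in all 3 saline libraries, and Ndufb6 is lower in all 8 nonescalating than in all 6 saline libraries after withdrawal.

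Withdrawal was compared with no withdrawal within each agent, with the library set as a term. In saline animals 50 of the 86 genes were above 0 after withdrawal, with a median of 0.09 (all genes -0.05). Only Ndufs8 reached an unadjusted p under 0.05 (log2 change -1.87, SE 0.68, adjusted p = 0.742), or 1.16% against 6.64% of all genes, and without saline replicate 1 its change was -0.98. Without saline replicate 3 the median was 0.61, with 66 of 86 above 0, and without saline replicate 1 it was -0.10. In nonescalating animals 57 were above 0, with a median of 0.21 (all genes 0.01), and only Ndufv1 reached that p (0.97, SE 0.43, adjusted p = 1.0), or 1.16% against 2.78% of all genes. Ndufv1 was at 21.3 to 49.5 CPM before and at 28.4 to 102 CPM after withdrawal. Without nonescalating replicate 4 the median was 0.04, with 49 of 87 above 0. For the difference of the cocaine effect between withdrawal and none, 3 genes reached that p, or 3.49% against 4.89% of all genes: Ndufs8 (2.10, SE 0.83, adjusted p = 0.972) and Uqcr10 (1.44, SE 0.67, adjusted p = 0.989) above 0 and Ndufb6 (-2.47, SE 1.13, adjusted p = 0.982) below. These comparisons share their saline and nonescalating libraries with those above.

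**Figure D4:**
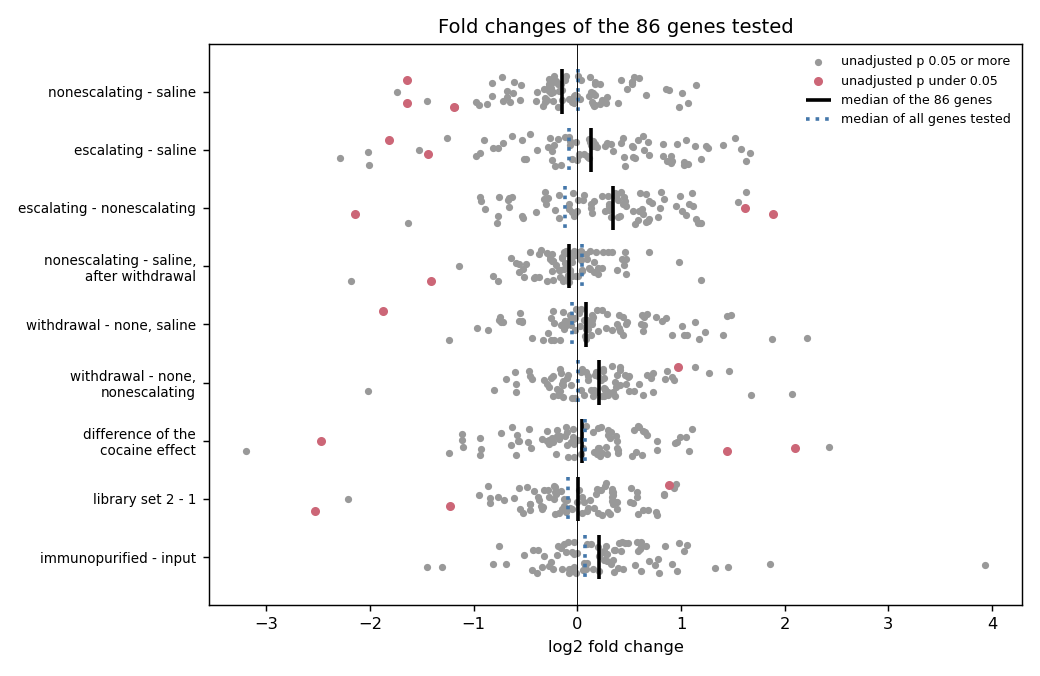
Log2 fold changes of the 86 genes tested (points) in each of 9 comparisons, with the median of the 86 (solid bar) and of all genes tested (dotted bar). The 86 tested against input differ in part from those of the other comparisons. Red points have an unadjusted p under 0.05, and none passed after adjustment; the medians of the 7 comparisons of groups lie between -0.15 and 0.34.

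Between the library sets of the withdrawal groups 0.915% of all genes passed with edgeR and 0 of the 86. The medians were 0.01 for the set and -0.09 for all genes, and 3 of the 86 reached an unadjusted p under 0.05, or 3.49% against 13.5% of all genes. Uqcrc1 was lower in set 2 (log2 change -1.23, SE 0.38, adjusted p = 0.119, edgeR), at 9.80 to 52.6 CPM against 57.3 to 97.6 CPM in set 1. DESeq2, limma voom and the fit with the share of reads in no feature each called it and no other gene of the set. The share of all genes called by these fits is not given here, so that count has no background beside it. Cox4i2 (log2 change -2.53, SE 1.06, adjusted p = 0.272, edgeR) and Atp5f1 (0.89, SE 0.40, adjusted p = 0.328, edgeR) also had an unadjusted p under 0.05. Endothelial and mural markers were lower in set 2 in 8 of 8 cases and 2 passed. The part of these markers in the result was not tested. The set term also enters the comparisons with withdrawal.

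Immunopurified RNA was compared with input in the 8 saline and nonescalating libraries and the 2 inputs. Here too 86 of the 87 genes entered, but not all the same ones. Complex IV had 14 and complex V 15, against 13 and 16 in the fit of the immunopurified libraries. With edgeR 0 of the 86 genes passed, against 0.255% of 14929 genes, and 0 had an unadjusted p under 0.05, against 8.27%; DESeq2 and limma voom also called 0. The summed level was 2338 to 9080 CPM in the pull-downs and 4802 and 6708 CPM in the inputs, inside that range. The share of reads in no feature was 29.7% to 62.5% in the pull-downs. It was 43.8% in the saline input and 25.4%, below all 8 pull-downs, in the nonescalating input. The part of that share in this comparison was not tested. Of the 87 genes 77 had both inputs inside the range of the 8 libraries, or 76 of the 86 tested (88.4%) against 77.0% of all genes tested. Endothelial and mural markers were above input in 8 of 8 cases, with a median log2 change of 4.18, and 2 passed, so a marker list of other cells was higher in the pull-downs than in input. Their part in the values of the set was not tested. Uqcr11, a small subunit of complex III, was above both inputs (9.93 and 9.05 CPM) in all 8 libraries, the 1 gene of the 86 whose groups did not overlap, against 7.53% of all genes in either direction. Atp5b was at 1625 and 2471 CPM in the inputs and at 268 to 2779 CPM in the pull-downs. The median log2 change was 0.21 with edgeR and -0.16 with limma voom, and with edgeR it was 0.53 without the nonescalating input and -0.15 without the saline input.

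The level of these genes went with another property of the libraries. Across the 24 immunopurified libraries, the set was lower where more reads were counted as in no annotated feature. Which annotation and strand setting define that class is not given in the sources used here. In the 8 libraries with the smallest share (29.7% to 36.2%) the summed level was 6783 to 9191 CPM. In the 8 in the middle (36.3% to 45.6%) it was 4820 to 6693 CPM, and in the 8 with the largest share (47.2% to 62.5%) 2385 to 5574 CPM. The first and the last 8 do not overlap, and each holds libraries of all 5 groups. The share of reads with no unique alignment, another share of the same read records, was 14.7% to 38.9% in the first 8 and 6.52% to 21.0% in the last 8, and its part in the relation was not tested. This relation was looked for after the values had been seen, and the library is the same on both axes, so it is a description of these libraries. CPM are taken over reads in genes, so the share of reads in no feature is not in their denominator.

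Gene by gene, the share was fitted in edgeR with group and library set as further terms, over 15854 genes. Of the 86 genes 22 passed and all 22 were lower with a larger share, or 25.6%. Of all genes 8.19% passed as lower and 9.7% as higher. The median SE of the slopes was 0.19 for the 86 genes and 0.32 for all genes. An equal slope therefore passes more readily in the set, and the shares that passed are not like for like. Of the 86 genes 80 had a slope below 0, with a median of -0.37 on the log2 scale per 10 percentage points, against 46.9% of all genes below 0 and a median of 0.05. In complex I 35 of 36 subunits, in complex II 4 of 4, in complex III 8 of 8, in complex IV 12 of 13 and in complex V 15 of 16 had slopes below 0; of the 8 assembly factors of complex I it was 5.

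Atp5b had the smallest p, with a fall by 0.51 per 10 percentage points (SE 0.09, adjusted p = 0.000155). It was at 1724 to 2813 CPM in the 8 libraries with the smallest share and at 274 to 1536 CPM in the 8 with the largest, without overlap. Atp5a1, its partner in the catalytic head, fell by 0.38 (SE 0.08, adjusted p = 0.00181), from a median of 636 to 298 CPM. The other members of complex V that passed were Atp5d, Atp5f1, Atp5j and Atp5o, of the rotor and the stalks. Atp5o also did not overlap, at 46.2 to 89.8 against 17.5 to 43.1 CPM. This held for only 2 of the 22 genes that passed, and no share over all genes is given for it. Those 22 had been picked by their slope on the same share of reads. Penk (lower) and Malat1 (higher) did not overlap either, so the lack of overlap is not particular to the set.

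In complex IV, 7 subunits passed: Cox4i1, Cox6a1, Cox7a2, Cox7b, Cox7c, Cox8a and Ndufa4, and also Cox7a2l, which joins complexes into supercomplexes. Ndufa4 fell by 0.68 (SE 0.15, adjusted p = 0.00195), from a median of 91.7 to 33.9 CPM, and Cox4i1, which regulates the enzyme, by 0.61 (SE 0.14, adjusted p = 0.00237), from 133 to 64.5 CPM. Cox8a fell by 0.49, from a median of 168 to 96.3 CPM, although its ranges of 110 to 310 and 54.1 to 203 CPM overlap.

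In complex I the 5 subunits that passed were Ndufa5, Ndufa10, Ndufb9, Ndufs3 and Ndufs4, and the assembly factor Ndufaf3 passed with the steepest slope (-0.82, SE 0.22, adjusted p = 0.00812). Ndufa10 fell by 0.69 (SE 0.16, adjusted p = 0.00242), from a median of 91.6 to 51.6 CPM. Sdha was the member of complex II that passed (a fall by 0.42, adjusted p = 0.00743), from 492 to 275 CPM, and Uqcrc1 that of complex III (slope -0.44, SE 0.14, adjusted p = 0.0299).

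**Figure D5:**
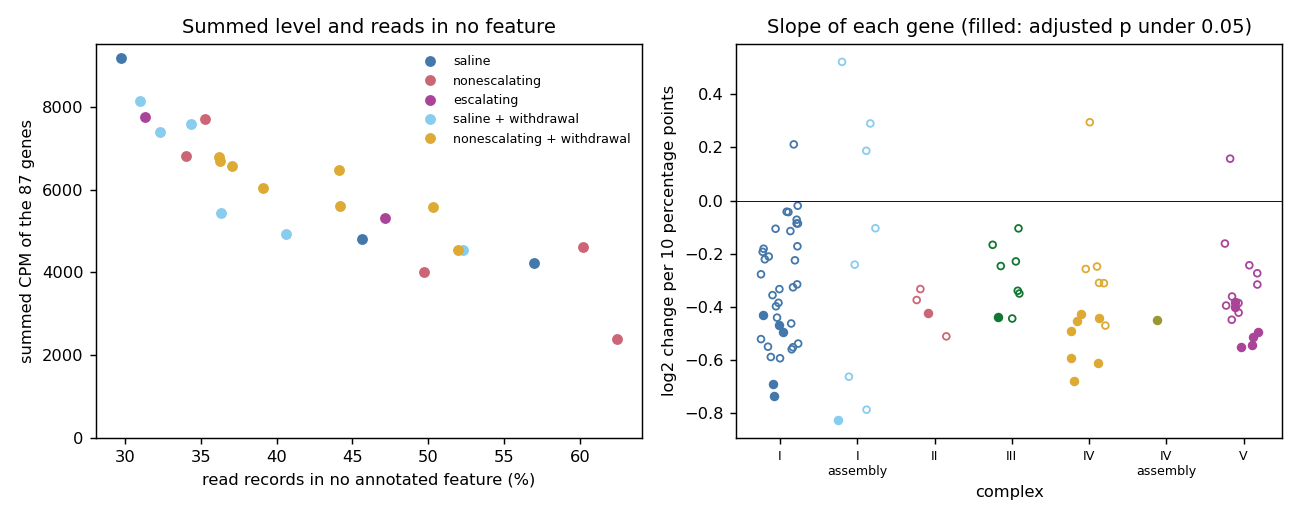
Left, summed CPM of the 87 genes against the percentage of read records in no annotated feature, 1 point per immunopurified library, coloured by group. Right, the slope of each of 86 genes by complex, in log2 units per 10 percentage points, with filled points at an adjusted p under 0.05; the sum runs from 9191 CPM at 29.7% to 2385 CPM at 62.5%, and 80 of 86 slopes lie below 0.

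Other genes of energy metabolism had slopes of the same sign. Beside the counts below, 8.19% of all genes passed as lower. A gene with a smaller SE passes more readily, so these counts are not like for like with that share. Of the citric acid cycle, which feeds the chain with electrons, 15 of 16 genes were below 0 (median -0.34) and 6 passed, all lower; Mdh2, its malate dehydrogenase, fell by 0.62 (SE 0.10, adjusted p = 7.04e-05). Of glycolysis 13 of 16 were below 0 (median -0.41) and 9 passed, all lower, as for Gapdh (-0.58, SE 0.08, adjusted p = 1.02e-05). Of the carriers of adenine nucleotides and phosphate and the porins 6 of 6 were below 0 and 3 passed, with Slc25a4, the adenine nucleotide translocator, falling by 0.39 (SE 0.08, adjusted p = 0.000937). Cyc1, the cytochrome c1 of complex III, fell by 0.54 (SE 0.19, adjusted p = 0.0410), and Lyrm7, which helps to build complex III, by 0.87 (SE 0.23, adjusted p = 0.00807). Cycs, cytochrome c, had a slope of -0.51 (SE 0.23, adjusted p = 0.130).
Among 75 mitochondrial ribosomal proteins 58 were below 0 (median -0.29) and 0 passed with edgeR, with 9 at an unadjusted p under 0.05, all lower. Among 79 cytosolic ribosomal proteins 76 were below 0 (median -0.24) and 17 passed, all lower. Of 13 regulators of mitochondrial biogenesis 9 were below 0 and 0 passed, with 2 at that p, among them Ppargc1a (slope -0.29, SE 0.14, adjusted p = 0.154). Tfam, which packs mitochondrial DNA, had a slope of -0.56 (SE 0.38, adjusted p = 0.329). Of 21 assembly factors of complex IV 12 were below 0 and 0 passed, with 2 at that p. In the 7 comparisons of groups 0 genes of these lists passed with edgeR, as did 0% of all genes.

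Markers of cell types and nuclear RNA moved with the same share of reads, for which 8.19% of all genes passed as lower and 9.7% as higher. All 6 D2 neuron markers had slopes below 0 and 3 passed, among them Penk (-0.66, SE 0.09, adjusted p = 1.02e-05), at 3541 to 5526 against 344 to 3516 CPM, and Drd2 (-0.42, SE 0.12, adjusted p = 0.0149). Of 8 endothelial and mural markers 7 were above 0 and 5 passed, all higher, as for Tek (1.02, SE 0.14, adjusted p = 1.06e-05), at 23.2 to 121 against 154 to 406 CPM. Of 5 nuclear RNAs 4 were above 0 and 2 passed, Malat1 (0.85, SE 0.08, adjusted p = 1.43e-07), at 7596 to 14440 against 26558 to 78052 CPM, and Neat1 (1.38, SE 0.27, adjusted p = 0.00118). Of 7 astrocyte markers 6 and of 8 oligodendrocyte markers 4 were above 0, and 0 passed with edgeR, with 0 and 2 at an unadjusted p under 0.05. The part of these markers in the slopes of the set was not tested.

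Within library set 1 alone 77 of 87 slopes were below 0 (median -0.41) and 19 genes passed, all lower, against 7.93% of all genes that passed as lower. Within set 2 alone 64 of 85 were below 0 (median -0.37) and 0 passed, as did 2 of all 11884 genes in its 8 libraries, where Ndufa10 had a slope of 0.17. Without nonescalating replicate 4, the library with the largest share, 17 genes passed as lower, against 6.18% of all genes, and without saline replicate 3, the library with the smallest, 18, against 7.1%. With log2 depth as a further covariate 11 genes passed as lower, against 4.89% of all genes, and with median-of-ratios scaling 14, against 5.41%.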

How the data were processed

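RNA was measured in 24 immunopurified and 2 input libraries. The authors deposited raw read counts per gene and library, made with STAR 2.0.0e and HTSeq on the build mm10, per the submitters' processing notes; which annotation, strand setting or version HTSeq ran with is not given in the sources used here. The 5 summary lines of each file (such as no feature) were kept out of library sizes and tests and used only as shares of read records. Groups come from the titles.

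The 31735 genes shared by all files were fitted with edgeR 4.0.16 in R 4.3.3 (TMM, filterByExpr with a minimum count of 10, robust quasi-likelihood test, Benjamini-Hochberg threshold of 0.05), over the 24 libraries with group and library set, and over 8 immunopurified and 2 input libraries with agent. CPM are counts per 1000000 gene counts after TMM. A count of 3 corresponds to 0.173 to 1.96 CPM. Exon lengths come from GENCODE and promoters from RefSeq. Alternatives were DESeq2 1.42.0, limma 3.58.1 voom with quality weights, scaling by median of ratios, filters on low counts (none, or a CPM of at least 1), other groupings and covariates, a replicate block and leaving out each library. The fits were tested on simulated data. The members and lists were chosen with earlier results of these data known, and the share of reads in no feature was added after seeing the data.

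Genes were named by these rules: those with the smallest unadjusted p in each direction of a comparison, those that passed, the highest 2 and the lowest 1 per complex, catalytic subunits and tissue forms. A few genes that met these rules are counted but not reported here by name.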

Additional observations from a re-analysis of the deposited data

Results flagged for a closer look

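In groups of 4 to 10 libraries the highest or lowest library was compared with the others, for genes named in the comparisons above and for the summed level. Of 63 such groups 6 had a library far from the rest. The groups share libraries, and genes were named from the same values. A chance rate of about 1 in 20 therefore cannot be set beside this count. Cox4i2 was at 47.6 CPM in nonescalating withdrawal replicate 2 of set 1, against 0 to 17.1 CPM in the others. Cox7c was at 34.6 CPM in replicate 1 of that group and set, against 86.1 to 115 CPM. Ndufb10 was at 87.9 CPM in nonescalating withdrawal replicate 3 of set 2, against 20.9 to 48.2 CPM. Ndufb6 was at 34.8 CPM in saline withdrawal replicate 1 of set 2, against 17.2 to 23.4 CPM. In the nonescalating group Cox7a2 was at 85.9 CPM in replicate 3, against 25.9 to 40.0 CPM. There Ndufv1 was at 21.3 CPM in replicate 2, against 44.1 to 49.5 CPM.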

How the results depend on the processing

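Of 185 settings over the 9 comparisons 182 called 0 genes of the set and 3 called 1, Uqcrc1 between the library sets (DESeq2, limma voom, and the share of reads in no feature as a covariate). For those 3 settings the share of all genes called is not given here. Leaving out 1 library each, the median of the set ran from -0.31 to 0.31 for nonescalating against saline and from -0.10 to 0.61 for saline withdrawal against saline, both highest without saline replicate 3. The count lower with the share of reads in no feature was 22, but 14 with median-of-ratios scaling, 11 with log2 depth as a covariate and 0 in set 2 alone. Single genes turned sign in 6 cases. Against the saline withdrawal libraries of set 1, as the descriptions of the nonescalating libraries would have it, the log2 change of Atp5e was -0.171 and that of Ndufs8 0.0804. For saline withdrawal against saline Ndufs8 was at 0.0182 with limma voom, and Sdhc ran from -1.28 to 0.0568 with 1 library left out, highest without saline replicate 3. Against input Ndufb5 was at 0.34 without the nonescalating and -1.49 without the saline input, and the slope of Ndufa10 was 0.17 in set 2 alone. The cause was not tested. With the replicate number as a block 0 genes of the set passed in the 9 comparisons. The 25 same-numbered pairs of libraries correlated by -0.16 to 0.28 (median 0.037), and 9 were above 0.1. The 90 pairs with different numbers correlated by -0.36 to 0.24 (median -0.046), and 20 were above 0.1. The ranges overlap, and the numbers were not taken to pair libraries, though these values do not settle whether they do. With 2 escalating libraries, and 7 reads of Ndufb6 in 1 library, depth and n limit what could be detected.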
